A study of Punica granatum with 4 samples.

Results

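In leaves of drought-stressed pomegranate (Punica granatum), 105 of the 27893 genes counted had their lowest level at 60 µM abscisic acid (ABA), at least 2-fold below the libraries at 0, 30 and 90 µM, while those 3 libraries stayed close to each other. Members were chosen on CPM (a gene's read count divided by its library's total, times 1000000), to which 0.1 was added before ratios were taken. A member had a mean of at least 2 CPM over the 4 libraries, its lowest value at 0, 30 or 90 µM was at least 2 times that at 60 µM, and the highest of those 3 values was under about 1.7 times the lowest. The 100 genes of highest mean CPM were left out. The ratios between 60 µM and the other doses therefore chose the members, and they are given below as a description, with no test.

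The plants were wild-type cuttings of the strain labelled Hongmanao, 180 days old, and all 4 groups were grown for 90 days and then kept dry at 30% to 35% of the water the soil can hold. Control plants received a daily spray of 5 mL of distilled water (0 µM), and the other 3 groups received the same volume of ABA at 30, 60 or 90 µM. Each dose had 1 library of leaf RNA, and the labels do not say how many plants it came from. No spread within a dose was measured, so replicate error is unknown for every comparison, and a difference between doses cannot be told apart from one between single libraries. No leaf marker could be looked up, because the identifiers carry no product names, so the labelled tissue was not checked.

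ABA is the hormone that plants accumulate as their tissue dries, and it closes the stomata and slows growth. Inside the cell it binds soluble receptors, which then inhibit a group of protein phosphatases, and this frees protein kinases that activate transcription factors and ion channels. The downstream genes include many for protective proteins and for water and sugar balance, as well as genes that ABA holds back. Such responses can be graded or can differ between low and high doses. Each of the 105 members is known here by its LOC identifier alone, so no role is given to any of them.

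The libraries held 22118468 to 28366719 counts, with the largest total at 60 µM. In CPM, the library at 90 µM stood somewhat apart. Of the 17435 genes that met the CPM limits (at least 2 CPM, outside the top 100), 41.7% had their lowest CPM there, against 21.9% at 60 µM. This tally was made on CPM alone. The share of counts in rRNA features ran from 0.146% in the 90 µM library to 0.334% in the control, with 0.228% and 0.243% for 30 and 60 µM. TMM scaling adjusts each library for an estimated difference in RNA composition. It moved the median log2 ratio of 60 over 90 µM by -0.11 and the ratios to 0 and 30 µM by 0.02 and -0.01.

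Together the members took 1.05% of the control counts, 1.16% of those with 30 µM ABA and 1.09% with 90 µM, but 0.389% with 60 µM (exact 95% binomial interval 0.387% to 0.392%). The rule itself gives the sum this shape, close to even at 0, 30 and 90 µM and lower at 60 µM alone, so nothing is read from it. All intervals here cover counting error only, because each dose had 1 library. They also treat reads as independent molecules, which reads copied by PCR are not. The median member had a log2 ratio of 60 µM to 0 µM of -1.43, to 30 µM of -1.54 and to 90 µM of -1.42. Over all 17435 genes the same medians were -0.03, 0.01 and 0.12. In bulk leaf RNA, fewer cells of a type and less RNA per cell cannot be told apart.

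**Figure D1:**
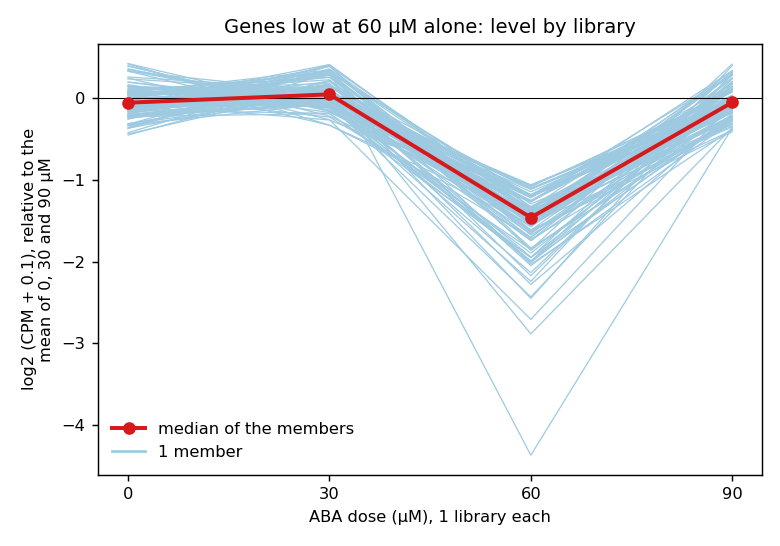
Level of each of the 105 members by library. The x axis gives the ABA dose in µM and the y axis the log2 of CPM + 0.1 relative to the mean of the libraries at 0, 30 and 90 µM. Thin lines are single members and the thick line is their median, which lies at -1.46 at 60 µM. The shape is the one by which the members were chosen.

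Most of the dips were modest. The lowest of the other libraries was 2 to 2.5 times the 60 µM value in 62 members, 2.5 to 3 times in 21, 3 to 4 times in 16 and more than 4 times in 6, with a median of 2.33. The rule found 0.602% of the 17435 genes. A stricter reading asks that the exact 95% interval of the ratio of counts (conditional binomial, Clopper-Pearson) lies wholly below 0.5. For 60 against 0 µM, 73 of 105 members met it, and 2.81% of the 17435 genes did. For 60 against 30 µM it was 85 members with a background of 3.21%, and for 60 against 90 µM it was 74 with a background of 2.34%. Against whichever other library was lowest, 53 members met it (background 0.545%). The rule used these contrasts, so these counts only describe how far the members lie past its limit.

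Members covered a wide range of levels, from a mean of 2.01 to 634 CPM, with a median of 35.1 CPM against 26.3 CPM over the 17435 genes. Levels of different genes are not per length here, so they are not ranked as amounts of transcript. Where genes are called abundant, a high mean CPM alone is meant. Of the members, 28 had a mean of at least 100 CPM, 47 had 10 to 100 CPM and 30 had less than 10 CPM. The median fold was 2.34, 2.29 and 2.38 in those 3 classes; the limit of 2 on the fold holds these medians close together, and nothing is read from them. The exact interval narrows as counts rise, so depth set how sharply a dip was measured. The interval lay wholly below 0.5 for 20 of the 28 most abundant members, for 24 of the middle 47 and for 9 of the 30 least abundant. These shares were not counted for other genes of the same levels. At 60 µM, 17 members had under 50 counts and 0 members had no counts.

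**Figure D2:**
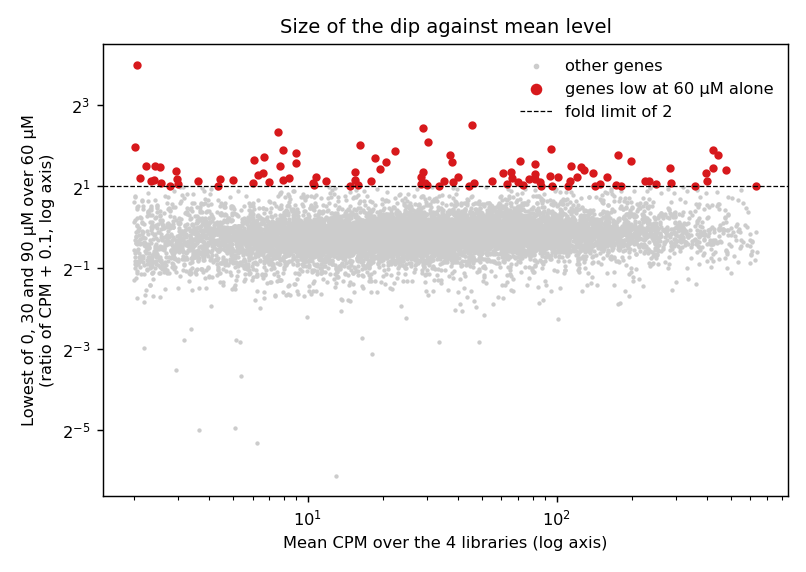
Size of the dip against level for the 12645 genes whose libraries at 0, 30 and 90 µM met the same limit on their spread. The x axis is the mean CPM and the y axis the lowest of those 3 values over the 60 µM value, both on log axes. Members (large points) lie above the dashed limit of 2 at all levels, and 1 member stands alone at 16.0.

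The member with the largest fold was LOC116187170, which had 61, 82, 1 and 55 counts at 0, 30, 60 and 90 µM (2.76, 3.41, 0.0353 and 2.07 CPM). It was at the level of a single read at 60 µM alone. The ratio of its counts at 60 µM to those at 90 µM, the lowest other library, was 0.0170 with a counting interval from 0.000424 to 0.0990. Because its level was near the rule's minimum, its log2 ratio of -4.00 became -1.57 when 1 CPM was added instead of 0.1.

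The next dips rested on more reads. LOC116202853 had 1517, 1481, 218 and 1187 counts at the rising doses (68.6, 61.6, 7.69 and 44.6 CPM). Its count ratio of 60 to 90 µM was 0.172 (interval 0.148 to 0.199). Its level at 60 µM thus lay far below the other 3 libraries, which themselves were in falling order. LOC116196058 had 1007, 725, 155 and 920 counts, and a ratio of 60 to 30 µM of 0.181 (0.151 to 0.216). LOC116203162 had 198, 218, 48 and 287 counts, and a ratio of 60 to 0 µM of 0.189 (0.135 to 0.260). These genes differed in which of the other libraries was highest, 0 µM for LOC116202853 and LOC116196058 and 90 µM for LOC116203162.

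LOC116215353 had 874, 992, 219 and 885 counts, with 33.3 to 41.2 CPM in 3 libraries and 7.72 CPM at 60 µM. LOC116212384 had 324, 522, 101 and 658 counts, or 14.6, 21.7, 3.56 and 24.7 CPM. Outside 60 µM the highest level was 1.24 times the lowest in LOC116215353. In LOC116212384 it was 1.68 times, close to the limit that the rule sets on the other libraries. LOC116209944 had 49, 59, 14 and 77 counts and was the member with the lowest mean, 2.01 CPM. LOC116212542 had 238, 233, 67 and 240 counts, with 9.03 to 10.8 CPM outside 60 µM and 2.36 CPM there. LOC116211172 had 2028, 2646, 689 and 4034 counts and is taken up below with its neighbours.

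LOC116213207 was the only gene among both the 10 largest dips and the 10 most abundant members. It had 11055, 13294, 3831 and 13518 counts, or 500, 553, 135 and 508 CPM. Its ratio of 60 to 0 µM was 0.270 (interval 0.260 to 0.280), and its levels in the other 3 libraries lay within 1.11 times of each other.

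Among the remaining abundant members, LOC116189455 had the largest dip, with 15039, 11916, 3843 and 12325 counts (680, 495, 135 and 464 CPM). Its ratio of 60 to 90 µM was 0.292 (0.282 to 0.303). It was the only one of the 10 most abundant members that was highest in the water control. LOC116206904 had 6819, 8545, 3178 and 9834 counts, with a ratio of 60 to 0 µM of 0.363 (0.348 to 0.379). LOC116197296 had 10965, 12444, 5168 and 13312 counts, and its 3 other libraries, at 496 to 517 CPM, were within 1.04 times of each other. LOC116204935 had 11741, 13743, 5696 and 16463 counts, with 201 CPM at 60 µM and 531 to 619 CPM elsewhere. Outside 60 µM, LOC116197296, LOC116204935 and LOC116206904 were within 1.2 times of their lowest level, whereas LOC116189455 ranged over 1.47 times.

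LOC116189126 had 9944, 10610, 4954 and 14128 counts, with a ratio of 60 to 30 µM of 0.396 (0.383 to 0.410). LOC116187573 had 6954, 8130, 4177 and 9383 counts, with a ratio of 60 to 0 µM of 0.468 (0.451 to 0.487). Both intervals lay below 0.5. LOC116197933 had 8054, 14412, 4662 and 12735 counts, with 164 CPM at 60 µM and 364 to 599 CPM elsewhere. LOC116207045 had 8049, 12436, 5105 and 10124 counts. LOC116214687, the member of highest mean, had 13008, 22622, 8304 and 19037 counts (588, 941, 293 and 716 CPM). These last 3 genes were highest at 30 µM. The intervals of LOC116207045 (0.477 to 0.512) and LOC116214687 (0.484 to 0.512) included 0.5.

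**Figure D3:**
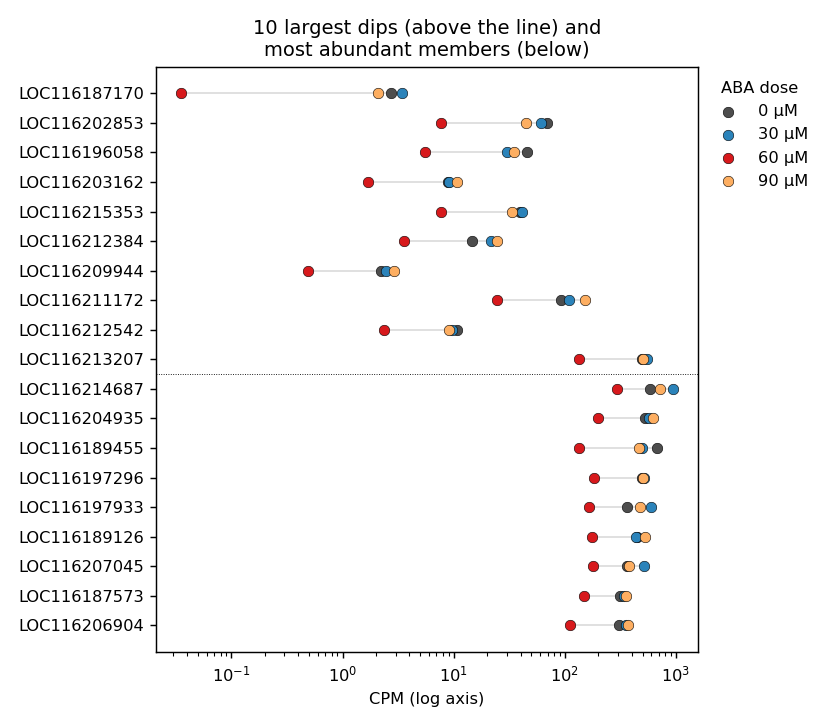
CPM in each library (log x axis) for the 10 members with the largest dips, above the dotted line, and for the other most abundant members, below it. Each point is 1 library, coloured by ABA dose. The 60 µM point is the lowest in every row shown, and the order of the other 3 points varies between genes.

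The rule limited how far apart the levels at 0, 30 and 90 µM could be and named no order among them. The order was compared with that in the 12645 genes that kept the same limit. Those genes did not have to meet the fold limit, which acts on the lowest of the 3 levels. The order is therefore not free of the rule, and the shares with TMM scaling are of the same members, chosen on CPM. The highest of the 3 was 30 µM in 44 members (41.9% against 35.8% of those genes), 90 µM in 35 (33.3% against 23.2%) and 0 µM in 26 (24.8% against 40.9%). With TMM scaling the shares highest at 90 µM were 41.0% and 39.8%, nearly equal, and those highest at 0 µM 21.0% and 27.9%. The lowest was 90 µM in 46 members (43.8% against 49.4%), 0 µM in 44 (41.9% against 20.1%) and 30 µM in 15 (14.3% against 30.5%). With TMM scaling the shares lowest at 90 µM fell to 27.6% and 32.0%, and those lowest at 30 µM were 21.0% and 35.9%. Levels were in the order 0, 30, 90 µM from low to high in 29 members, among them LOC116204935, LOC116206904, LOC116187573 and LOC116212384. That was 27.6% of the members against 9.88% of the comparison genes. The opposite order held in 17 members, such as LOC116202853, LOC116189455 and LOC116212542, 16.2% against 23.8%. With TMM scaling LOC116189455 and LOC116212542 lost this order, because 30 µM was then the lowest of the 3. With TMM scaling, which raises the 90 µM library, the first order held in 33.3% of the members and 18.2% of the comparison genes and the second in 7.62% (8 members) and 13.5%. The share with the control as the lowest of the 3 was larger in the members than in the comparison genes under both scalings (51.4% against 32.1% with TMM), and no test of that difference was made. In 28 members the 3 libraries lay within 1.2 times of each other. The median ratio of the highest to the lowest of the 3 was 1.36 in the members, 1.27 in the comparison genes and 1.38 over the 17435 genes. The share within 1.2 times was not counted outside the members.

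Whether 60 µM was unusual in having such genes was examined by putting each other library in its place under the same limits. The rule found 45 genes low at 0 µM alone (0.258% of 17435), 48 low at 30 µM alone (0.275%) and 248 low at 90 µM alone (1.42%), against the 105 at 60 µM. Turned around, it found 88 genes high at 60 µM alone (0.505%), 49 for the control (0.281%), 31 for 30 µM (0.178%) and 38 for 90 µM (0.218%). Each library thus had genes of its own that were low in it alone, and 60 µM had more than 0 and 30 µM but fewer than 90 µM. With TMM scaling the 4 counts at rising doses were 45, 51, 110 and 179, so the order was kept while the count at 90 µM was smaller.

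**Figure D4:**
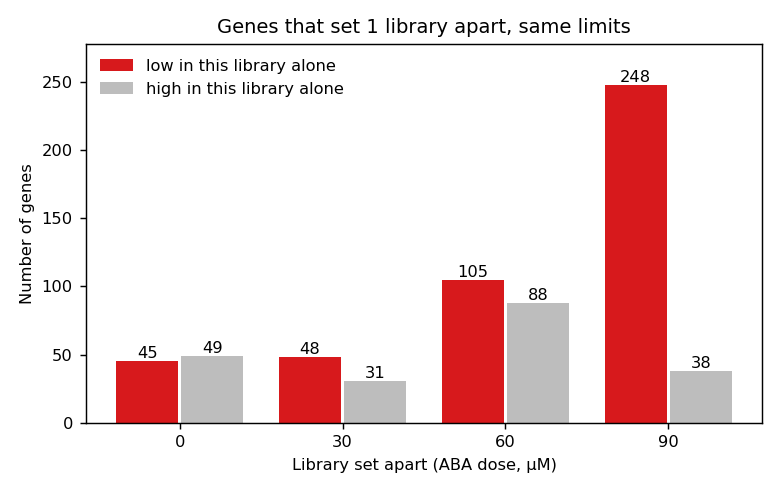
Number of genes (y axis) that set 1 library apart under the same limits, by the library set apart (x axis, ABA dose in µM). Dark bars count genes low in that library alone and light bars genes high in it alone. The low counts are 45, 48, 105 and 248 at 0, 30, 60 and 90 µM.

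Each of the 3 other libraries entered both the fold limit and the limit on spread, and leaving one out lifts both for that library. Without the 0 µM library the rule found 267 genes, of which 103 were members. It found 209 without the 30 µM library (101 members) and 315 without the 90 µM library (103 members).

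The fold limit cut through a continuous range of values. Just inside it were LOC116195788 with 107, 101, 58 and 171 counts (fold 2.00), LOC116194849 with 74, 86, 39 and 76 (2.01) and LOC116205239 with 910, 918, 522 and 985 (2.01). Just outside were LOC116213600 with 7416, 8869, 4764 and 11021 counts (fold 2.00, below 2 before rounding), LOC116214044 with 1057, 798, 428 and 803 (1.99) and LOC116189734 with 326, 298, 175 and 412 (1.99). At the limit on the other libraries, LOC116197734 was inside with a spread of 1.689 and LOC116193255 outside with 1.697. At the limit on the mean, LOC116209944 was inside with 2.01 CPM and LOC116210409 outside with 1.99 CPM. Genes on either side of a limit thus differed little in the value it applies to.

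By RefSeq class, 102 members were protein-coding and 3 were long non-coding RNAs (lncRNA), transcripts with no annotated protein. That is 2.86% lncRNA against 2.35% of the 17435 genes. LOC116194849 is the first of them, with the counts given above for the limit. LOC116207067 had 70, 63, 25 and 95 counts, and LOC116210116 had 48, 63, 25 and 74. All had under 4 CPM in every library, and the intervals of their ratios to the lowest other library, 0.318 to 0.717, 0.203 to 0.543 and 0.240 to 0.672, included 0.5. Reads from a lncRNA and a gene on the opposite strand cannot be told apart here, because no source used here gives the strand setting of the counting.

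Position was not used by the rule. Of the 103 members placed on a chromosome of the RefSeq assembly, 6 (5.83%) stood next to another member in the order of counted genes and 8 (7.77%) had one within 3 genes. In the 7 other sets of genes that set 1 library apart, these shares ran from 0% to 4.26% and from 0% to 8.94%, in sets of 31 to 246 placed genes. The 8 members formed 3 groups. Near copies among neighbours can share reads, and no source used here says how such reads were counted, so single values in these groups are uncertain.

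In the largest group, 4 of 6 genes in a row were members. LOC116211181 had 907, 959, 331 and 1521 counts at the rising doses. LOC116211188 had 2590, 3299, 1169 and 4333. LOC116211172 had 2028, 2646, 689 and 4034, and LOC116189518 had 1476, 2206, 611 and 2780. All 4 genes were lowest at 60 µM and highest at 90 µM, with count ratios of 60 µM to the lowest other library of 0.293, 0.352, 0.265 and 0.323 and no interval reaching above 0.377.

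The genes between and beside them were looked at after their values were seen. LOC116207107, between 2 members, had 103, 213, 61 and 322 counts, with the same order of doses as LOC116211172 but too large a spread among the other libraries for the rule. LOC116197130, next in line, had 45, 102, 8 and 45 counts, and LOC116198921 after it had 13, 10, 1 and 5. At least 2-fold lower CPM + 0.1 at 60 µM than in every other library was therefore seen in 7 of 8 genes in a row. The rule had required this fold of the 4 members among the 7, and the row was looked at because it held them. Nothing is read from the share of the row. Of the 17435 genes, 1.11% met that fold limit with no limit on the others. The ends of the row were set with these values known. The last gene had a mean of 0.307 CPM, below the rule's minimum, and its interval (0.00396 to 1.68) included equal levels. The interval of LOC116207107 (0.331 to 0.640) included 0.5. The exception was LOC116211195, with 709, 505, 700 and 610 counts. On one side the row ended at LOC116192511 (404, 351, 448 and 496 counts) and on the other at LOC116195136 (127, 248, 412 and 160 counts), which was highest at 60 µM.

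**Figure D5:**
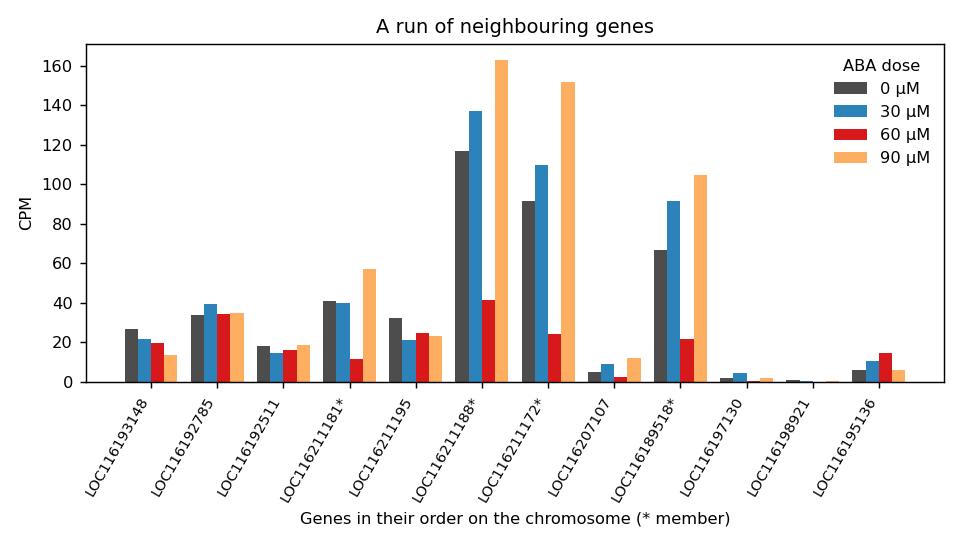
CPM (y axis) in the 4 libraries for 12 consecutive counted genes along one chromosome (x axis, in gene order), with bars coloured by ABA dose and members marked by an asterisk. The 4 members are lowest at 60 µM and highest at 90 µM, while LOC116211195 among them is not.

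The other 2 groups were pairs. LOC116206370 had 3773, 3390, 1518 and 4012 counts and its neighbour LOC116204526 had 2950, 3067, 1740 and 3282, with ratios of 60 µM to the lowest other library of 0.380 and 0.497. LOC116196284 had 126, 91, 44 and 93 counts, and LOC116196285 beside it had 4018, 4779, 2559 and 6842. The members of this last pair differed outside 60 µM, the first being highest at 0 µM and the second at 90 µM. Taking all genes directly beside a member that were no members and met the CPM limits, 143 in all, 52 (36.4%) were lowest at 60 µM, against 21.9% of the 17435 genes. Their median difference between the log2 level at 60 µM and the mean of the other 3 was -0.09, against 0.04 over the 17435 genes and -1.46 over the members. Both values were taken on CPM alone and not for genes beside the other sets that set 1 library apart. The difference from the 17435 genes was not tested.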

How the data were processed

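RNA was measured in 4 leaf libraries, 1 per ABA dose. Whole-number read counts were deposited for each gene, without normalization. The submitters' processing notes name FastQC, HISAT2 and featureCounts. No source used here gives versions, genome build, strand setting or the treatment of multiply mapped reads, so no coordinates are printed and reads of near-identical or overlapping genes may be miscounted. Of 27893 identifiers, 27546 matched the RefSeq table of assembly ASM765513v2, which was used for class and gene order; 347 did not match. No column belonged to another sample.

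CPM, ratios and exact 95% intervals were computed with Python 3.11.15, pandas 2.3.3 and scipy 1.17.1. As alternatives, scaling used edgeR 4.0.16 (TMM) and DESeq2 1.42.0 (size factors), with R 4.3.3. The rule was run on simulated counts as a check of the code. Those counts held counting error only, with no other variation between libraries, and dips deeper than that of the median member. The run therefore does not show how the rule performs on single libraries such as these. No test between doses was made, because each had 1 library and the rule used those contrasts. The members and lists were chosen with earlier results of these data known. Named genes are the 10 largest dips, the 10 highest mean CPM, the genes at the limits, non-coding members and members beside each other. Other alternatives changed the pseudocount, the limits and the libraries entered.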

Additional observations from a re-analysis of the deposited data

How the results depend on the processing

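The number of members was 110 with TMM factors (94 of the 105 among them), 111 with DESeq2 size factors (92), 82 with 1 CPM added (79), 88 with a mean of at least 5 CPM, 75 and 138 with the others within 1.5 and 2 times, and 107 with the top 100 kept in. It was 173 with no minimum on the mean, 351 at 1.5-fold, 22 at 3-fold, 194 with no limit on the others, 53 with intervals wholly below 0.5, and 267, 209 and 315 without the 0, 30 and 90 µM library. These moves follow from looser or tighter limits. At 3-fold, genes low at 0, 30 and 90 µM alone numbered 12, 7 and 36, and genes high at 60 µM alone 20. With TMM factors, chosen here after the data were seen, 35 members were in the order 0, 30, 90 µM and 8 in the opposite order. The members' median log2 ratios stayed between -1.28 and -1.55 under both scalings and with 1 CPM added. Of 58 alternative values for named genes, 4 left the gene's counting interval, with LOC116187170 moving most. That 0 changed direction was fixed beforehand, because members were chosen at 2-fold or more. Adding 1 CPM cannot reverse a ratio, and the TMM factors ran only from 0.940 to 1.03. The motif and protein family alternatives were not run, because no promoter or protein sequences were used here. No paired analysis was possible because each dose had 1 library. With 1 library per dose, depth limits the least abundant members most.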

Other observations

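Beyond the 105 members, 89 genes were at least 2-fold lower at 60 µM than in every other library but failed the limit on the other 3. Of these, 33 had a spread under 2 times. Together with the members they were 1.11% of the 17435 genes. The highest level was at 30 µM in 47 of the 89 genes, at 0 µM in 32 and at 90 µM in 10. Over the 17435 genes, the highest of these 3 libraries was 30 µM in 35.3%, 0 µM in 40.7% and 90 µM in 24.0%. The largest fold was that of LOC116190357, with 5307, 8383, 42 and 3267 counts at 0, 30, 60 and 90 µM, and then that of LOC116190360, with 156, 355, 2 and 293. LOC116215951 followed with 221, 647, 18 and 270 counts, and LOC116214196 had 162, 259, 16 and 154. LOC116194456 had 429, 413, 15 and 129 counts, and was also lower at 90 µM than at 0 and 30 µM. LOC116187791 had 1743, 2094, 165 and 1119 counts, a ratio of 60 to 90 µM of 0.138 (counting interval 0.117 to 0.163).

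Of the 100 most abundant genes, which the rule left out, 2 met its other limits. LOC116206165 had 16279, 21211, 6466 and 24392 counts, and its ratio of 60 to 0 µM was 0.310 (counting interval 0.301 to 0.319). LOC116215544 had 26667, 28663, 13334 and 25021 counts, and its ratio of 60 to 90 µM was 0.4995 (0.489 to 0.510).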
